A study of Homo sapiens with 3 samples.

Results

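Receptor tyrosine kinases are cell-surface proteins that bind a growth factor or a matrix ligand outside the cell and phosphorylate tyrosines inside it. The 10 described here (EGFR, ERBB2, MET, AXL, IGF1R, EPHA2, EPHB4, PDGFRB, KDR and DDR1) were taken as a named list. Their Ensembl gene IDs were matched to symbols with GENCODE 29, and all 10 were found among the 48162 genes listed for each library. None of them was chosen by a measured value in this description, although the list was drawn up with earlier results of these data known.

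RNA was sequenced from MDA-MB-231, an established human triple-negative breast cancer cell line with a mesenchymal-like phenotype. The 3 libraries, 1 per group, came from cells depleted of FoxO3, cells depleted of Geminin together with FoxO3 (the co-depletion), and control cells. All 3 cultures were infected with lentivirus for 24 hours and harvested 72 hours after the medium was changed, so the control had also been through an infection. The sources used here give neither the depletion sequences nor the control vector. The unit is FPKM, which divides a gene's fragments by its length and by the sequencing depth of the library, and the totals behind it came out at 10760613 reads for FoxO3 depletion, 12267332 for the co-depletion and 14507410 for the control. With 1 library per group no difference below has a replicate check: each compares 2 cultures, and intervals cover counting error only.

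Ligand binding pairs many receptors of this class, which then phosphorylate each other and recruit adaptors such as GRB2 and SHC1. RAS and ERK signalling is started on that platform, and so is PI3K and AKT signalling. AKT phosphorylates FoxO transcription factors and keeps them out of the nucleus, and FoxO factors are known to raise the transcription of some receptor genes, ERBB3 and INSR among them, when AKT is inhibited. Triple-negative tumours lack oestrogen and progesterone receptors and ERBB2 amplification, and EGFR and AXL are much studied in them.

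FOXO3 and GMNN, the targeted genes, checked the labels. FOXO3 was at 2.79 FPKM in FoxO3 depletion and 2.94 in the co-depletion, against 12.2 in the control, and GMNN, which encodes Geminin, was at 112 and 37.0 FPKM in the depleted libraries, against 112 in the control. The mesenchymal marker VIM was at 607, 574 and 593 FPKM in the same order and the oestrogen receptor gene ESR1 at 0.12, 0.08 and 0.04. Other markers were less even. CD44 was at 935, 904 and 631 FPKM, MMP1 at 14.2, 16.4 and 32.0, TGFBI at 31.4, 30.4 and 28.3, and SPARC at 1.01, 1.05 and 1.09. Of 6 luminal breast markers 2 reached a mean of 1 FPKM, GATA3 at 12.1, 12.6 and 8.78 and EPCAM at 9.80, 8.95 and 13.7. Across all 12649 analysed genes, those with a GENCODE name and a mean of at least 1 FPKM, the median log2 ratio of (FPKM + 1) was -0.07 for FoxO3 depletion and -0.06 for the co-depletion, both against the control. Genes with AT-rich transcripts lay lower than this in both depleted libraries, so a log2 ratio adjusted for GC content is given where it matters.

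All 10 receptors were expressed in all 3 libraries, and EPHA2 and AXL stood far above the others. Summed over the 10 genes, the level was 1804 FPKM in FoxO3 depletion, 1785 in the co-depletion and 1519.6 in the control. EPHA2 and AXL together made up 76.1% of that sum in FoxO3 depletion, 75.6% in the co-depletion and 67.6% in the control. At the other end PDGFRB and KDR were the lowest 2 of the 10 in each library.

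**Figure D1:**
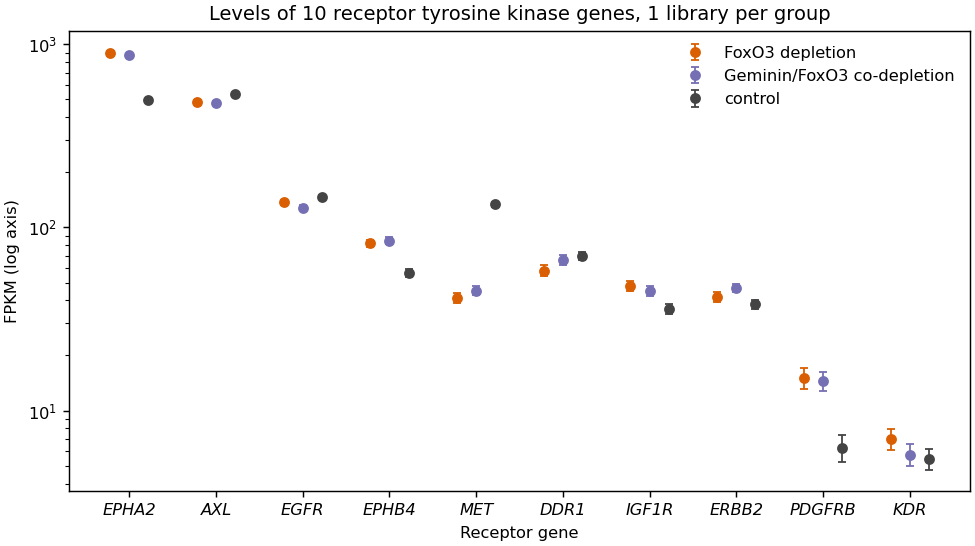
FPKM of the 10 receptor genes (vertical log axis) in the FoxO3-depleted, co-depleted and control libraries, with exact 95% Poisson counting intervals; each point is 1 library. EPHA2 lies at 891 and 869 FPKM in the depleted libraries and 494 in the control, and MET at 41.3 and 45.1 against 134.

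The order of the levels differed between the libraries at several places. EPHA2 ranked above AXL in both depleted libraries and below it in the control, and MET ranked 8 of 10 in both depleted libraries and 4 of 10 in the control. EGFR ranked 3 of 10 in all 3 libraries. Some neighbours in the order could not be separated by counting error. In FoxO3 depletion ERBB2, at 41.6 FPKM (39.1 to 44.2), and MET, at 41.3 (38.7 to 43.9), overlapped, and in the co-depletion ERBB2 at 46.8 (44.3 to 49.4), IGF1R at 45.1 (42.5 to 47.8) and MET at 45.1 (42.6 to 47.7) did so. In the control the same held for ERBB2 at 38.0 (36.0 to 40.2) and IGF1R at 35.8 (33.6 to 38.0), and for PDGFRB at 6.24 (5.24 to 7.38) and KDR at 5.44 (4.75 to 6.20).

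Levels of different receptors also depend on the length by which the authors divided. By the smallest whole-read solution the FPKM values imply lengths of 1307 bases for DDR1 to 2852 bases for KDR, well under the longest GENCODE 29 transcripts, which run from 3964 bases for EPHA2 to 12235 bases for IGF1R. If the true reads are a multiple of that solution, these lengths and the levels that follow are larger by the same factor. Divided by the longest transcript instead, a choice made after seeing the data, EPHA2 was at 341 FPKM in FoxO3 depletion, 333 in the co-depletion and 189 in the control, and AXL at 259.7, 259 and 287. On that scale the top pair and its change of order stayed, EGFR ranked 3 in FoxO3 depletion and 4 in the other libraries, IGF1R ranked 8 in all 3, and KDR ranked above PDGFRB in the control. Ratios between libraries do not depend on this length.

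By size, 2 of the 10 receptors were at least 1.5-fold higher in FoxO3 depletion than in the control on the FPKM + 1 scale, against 4% of all analysed genes, and 1 was at least 1.5-fold lower, against 16.7%. Those higher were PDGFRB and EPHA2, and the lower one was MET. The co-depletion against the control gave the same 3 receptors: 2 higher, beside 4.02% of all genes, and 1 lower, beside 12.3%. These comparisons share the control library, so their likeness is no separate evidence. The median log2 ratio over the 10 was 0.22 in FoxO3 depletion and 0.18 in the co-depletion, and the 10 were rich in GC, with a median GC content of 57.9% against 49.7% over the analysed set. Corrected for GC content, those medians were 0.23 and 0.19, and the same 3 receptors passed 1.5-fold. The background was then 5.85% higher and 9.37% lower in FoxO3 depletion, and 4.62% higher and 6.14% lower in the co-depletion.

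**Figure D2:**
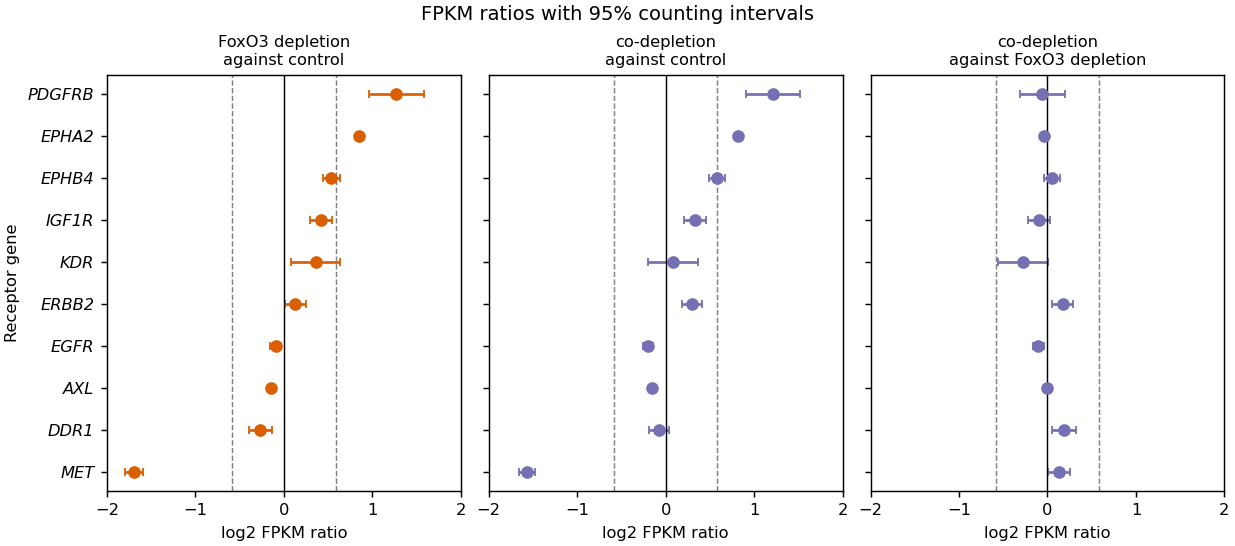
log2 ratio of FPKM (horizontal axis) of each receptor for FoxO3 depletion against control, co-depletion against control and co-depletion against FoxO3 depletion, with exact 95% counting intervals; dashed lines mark 1.5-fold. MET lies far to the left and PDGFRB and EPHA2 to the right in the comparisons with the control, while all 10 lie between the dashed lines when the depleted libraries are set against each other.

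The start regions of the receptors that stood apart are shown first, since FoxO3 is a DNA-binding factor that recognises the element GTAAACA. RefSeq (GRCh38.p14) gave windows from 250 bases before to 50 bases after the start for all 10 receptors, 19 windows in all because EGFR, AXL and DDR1 have several starts. The MET window (chr7:116671946-116672245, plus strand) and the windows of PDGFRB (chr5:150155796-150156095, minus strand) and EPHA2 (chr1:16156020-16156319, minus strand) are given 5′ to 3′. Of the AXL starts, the one at chr19:41226505-41226804 (plus strand) is added because it is the only window of the 19 that holds the FoxO element. Capitals mark GTAAACA or its reverse complement TGTTTAC, the AP-1 motif TGANTCA and the TEAD motif GGAATG or its reverse complement CATTCC, searched on both strands.
MET: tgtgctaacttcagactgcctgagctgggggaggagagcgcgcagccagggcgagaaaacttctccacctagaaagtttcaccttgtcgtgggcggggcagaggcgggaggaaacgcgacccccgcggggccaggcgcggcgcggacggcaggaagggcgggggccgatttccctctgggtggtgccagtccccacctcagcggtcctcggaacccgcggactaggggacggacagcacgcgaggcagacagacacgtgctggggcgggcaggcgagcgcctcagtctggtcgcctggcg
PDGFRB: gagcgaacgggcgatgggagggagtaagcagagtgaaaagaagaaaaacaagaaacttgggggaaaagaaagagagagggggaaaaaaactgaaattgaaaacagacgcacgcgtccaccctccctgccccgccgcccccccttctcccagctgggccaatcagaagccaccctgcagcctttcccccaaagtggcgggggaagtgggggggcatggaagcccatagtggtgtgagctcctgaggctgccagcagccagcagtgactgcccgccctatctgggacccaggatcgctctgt
EPHA2: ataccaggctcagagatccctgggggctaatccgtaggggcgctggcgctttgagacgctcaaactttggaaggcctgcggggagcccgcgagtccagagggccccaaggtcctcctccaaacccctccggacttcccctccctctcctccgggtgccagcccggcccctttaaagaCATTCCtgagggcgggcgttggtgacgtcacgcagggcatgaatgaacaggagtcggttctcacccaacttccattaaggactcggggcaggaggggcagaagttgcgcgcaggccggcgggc
AXL: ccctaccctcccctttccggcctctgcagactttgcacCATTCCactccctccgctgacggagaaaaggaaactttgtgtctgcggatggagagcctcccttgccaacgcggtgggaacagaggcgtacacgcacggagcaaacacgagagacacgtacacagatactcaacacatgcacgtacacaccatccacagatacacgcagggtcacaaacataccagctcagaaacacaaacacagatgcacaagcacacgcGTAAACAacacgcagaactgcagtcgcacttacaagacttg

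The AXL window holds GTAAACA from 9 to 15 bases after the start, and 3.42% of 35116 RefSeq windows of this length hold that element on either strand. The MET, PDGFRB and EPHA2 windows hold no match to it within these 300 bases. EPHA2 has the TEAD motif from 73 to 68 bases before its start and AXL from 212 to 207 bases before. This motif is in 14% of all windows, and also in a window each of EGFR and DDR1, which are not shown. The AP-1 motif, in 7.71% of all windows, occurs in none of the 4 windows shown and in windows of EGFR, ERBB2 and DDR1. CpG counts differed, with 30 in the MET window, 11 in that of PDGFRB, 20 in that of EPHA2 and 17 in that of AXL, against a median of 14. A match is a run of letters and not a measured binding site.

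The receptors are taken below by the ligands they bind, starting with the ERBB family. EGFR binds EGF, TGFA, AREG, EREG and HBEGF. It was at 137 FPKM in FoxO3 depletion and 128 in the co-depletion, against 147 in the control. The FPKM ratio to the control was 0.938 (95% counting interval 0.901 to 0.977) for FoxO3 depletion and 0.873 (0.838 to 0.908) for the co-depletion, so EGFR was slightly lower in both depleted libraries and far from the 1.5-fold rule. ERBB2 has no known ligand of its own and pairs with the other ERBB receptors. It was at 41.6 and 46.8 FPKM in the depleted libraries, against 38.0 in the control, with ratios of 1.09 (1.01 to 1.19) and 1.23 (1.14 to 1.33). By FPKM its level was close to that of IGF1R, but per length of the longest transcript it was above it, at 19.3 and 21.7 in the depleted libraries and 17.6 in the control, against 7.76, 7.28 and 5.78 for IGF1R. MIEN1, at 15.6, 14.7 and 13.9 FPKM, and PGAP3, at 4.22, 5.28 and 4.65, overlap ERBB2 on the opposite strand. Reads from these overlaps cannot be told apart without strand. ERBB3, whose kinase is nearly inactive, was at 3.63 and 3.47 FPKM, against 4.40, and ERBB4 did not reach a mean of 1 FPKM.

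Ligands of these receptors were made by the cells themselves, and HBEGF and NRG1 were higher in the depleted libraries. HBEGF, the membrane-anchored heparin-binding ligand of EGFR, was at 164 FPKM in FoxO3 depletion and 154 in the co-depletion, against 72.0 in the control, ratios of 2.27 (2.13 to 2.43) and 2.14 (2.004 to 2.28). NRG1, which binds ERBB3 and ERBB4, was at 87.5 and 85.5 FPKM, against 54.6. TGFA was the most abundant EGFR ligand in the control, at 109 FPKM, and was at 115 and 125 FPKM in the depleted libraries, so that HBEGF ranked above it there. Of 8 analysed EGFR and ERBB ligands, 2 were at least 1.5-fold higher in FoxO3 depletion and 1 lower, and 2 higher and 0 lower in the co-depletion. Over all analysed genes 4% were higher and 16.7% lower in FoxO3 depletion, and 4.02% and 12.3% in the co-depletion. The lower ligand, BTC, was at 0.70 FPKM on 13 reads, against 1.68 in the control, and its log2 ratio of -0.66 was -0.13 after GC adjustment, which ends that call. AREG and EREG have AT-rich transcripts. Their log2 ratios in FoxO3 depletion were 0.42 and 0.01 as measured and 0.88 and 0.62 after GC adjustment. In the co-depletion they were 0.20 and 0.19 as measured and 0.59 and 0.66 after it. That makes 4 ligands higher and 0 lower in each depleted library. Over all analysed genes the GC-adjusted shares were 5.85% higher and 9.37% lower in FoxO3 depletion, and 4.62% and 6.14% in the co-depletion.

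MET, the receptor of hepatocyte growth factor, differed most of the 10. It stood at 41.3 FPKM in FoxO3 depletion and 45.1 in the co-depletion, against 134 in the control. Its level was 30.9% of control (28.8% to 33.1%) in FoxO3 depletion, on 982 reads against 4286, and 33.7% (31.6% to 36.0%) in the co-depletion. Both depleted libraries lay far below the control and close to each other. On the FPKM + 1 scale the log2 ratios were -1.67 and -1.55. Among the 12649 analysed genes 37 had a ratio this low or lower in FoxO3 depletion and 19 in the co-depletion, MET included.

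The MET transcripts have a mean GC content of 45.1%, in a range where other genes were also somewhat lower. Of 10 equal bins by GC content MET falls in the fourth, where the median log2 ratio was -0.08 in FoxO3 depletion and -0.10 in the co-depletion. Only 5 of that bin's 1265 genes, MET included, were as low in FoxO3 depletion, and 2 in the co-depletion. After adjustment for GC content the log2 ratios were -1.54 and -1.39, and after GC and length -1.47 and -1.33. HGF, the only known ligand of MET, was listed at 0 FPKM in all 3 libraries. MST1R, the other receptor of the MET family, was at 10.9 and 12.8 FPKM in the depleted libraries, against 14.1 in the control, under the 1.5-fold rule.

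**Figure D3:**
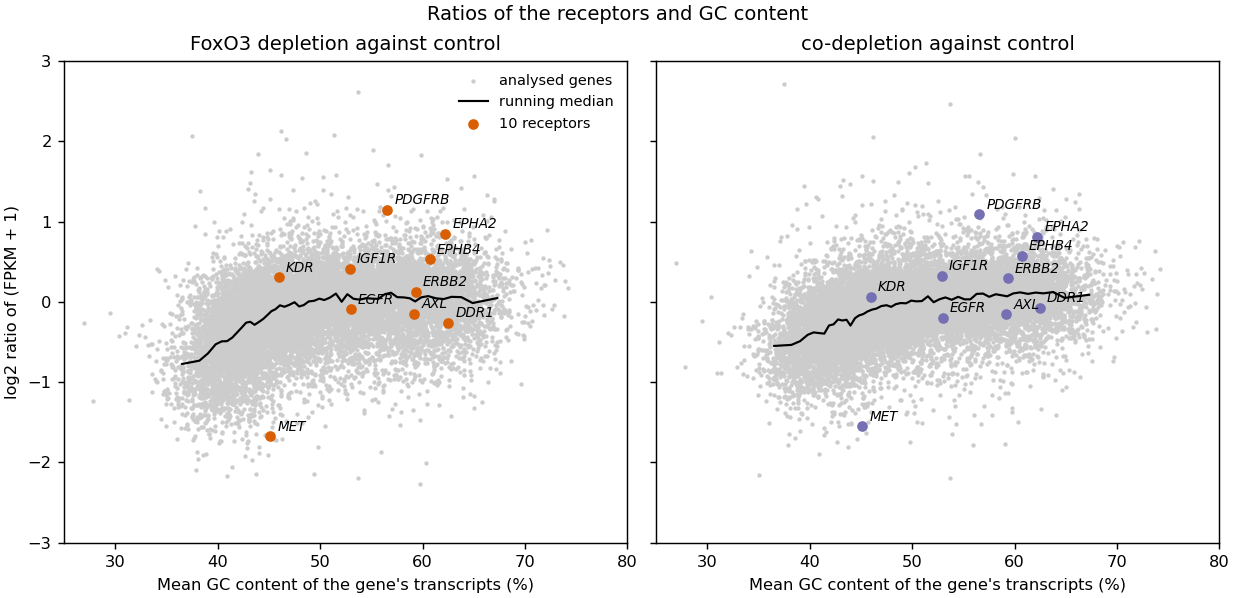
log2 ratio of (FPKM + 1) (vertical axis) against the mean GC content of a gene's transcripts in percent (horizontal axis) for all analysed genes (grey), with the running median (line) and the 10 receptors (coloured), for FoxO3 depletion and for co-depletion against control. The running median falls at low GC content, and MET lies well below it while PDGFRB and EPHA2 lie above it.

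AXL belongs to the TAM receptors, which are activated by GAS6, and is a known mark of mesenchymal-like breast cancer cells. It was at 482 FPKM in FoxO3 depletion and 480.2 in the co-depletion, against 534 in the control, with ratios of 0.903 (0.884 to 0.923) and 0.899 (0.880 to 0.919). These small differences rest on 13237 to 19756 reads per library. An antisense gene, AC011510.1, overlaps AXL and was listed at 2.92, 3.42 and 3.62 FPKM. The other TAM receptors TYRO3 and MERTK were at 20.8 and 17.6 FPKM in FoxO3 depletion and 21.4 and 15.3 in the co-depletion, against 16.0 and 14.6 in the control. GAS6 was abundant throughout, at 117 and 128 FPKM, against 131. Protein S (PROS1), a ligand of MERTK and TYRO3 and an anticoagulant, was at 4.49 FPKM in FoxO3 depletion and 7.92 in the co-depletion, against 11.6 in the control, and passed 1.5-fold in FoxO3 depletion. The co-depletion thus lay between the other 2 libraries, with a ratio of 1.76 (1.35 to 2.31) to FoxO3 depletion. Its log2 ratio to the control was -1.20 in FoxO3 depletion and -0.50 in the co-depletion as measured, and -0.69 and -0.10 after GC adjustment.

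IGF1R, the receptor of insulin-like growth factors, was somewhat higher in the depleted libraries. It was at 48.0 FPKM in FoxO3 depletion and 45.1 in the co-depletion, against 35.8 in the control, ratios of 1.34 (1.23 to 1.46) and 1.26 (1.16 to 1.37), below the 1.5-fold rule. The insulin receptor INSR lay the other way, at 18.1 and 16.7 FPKM, against 20.7. IGF1 was listed at 0 in all 3 libraries, and IGF2 stayed under 1 FPKM, at 0.42 and 0.37, against 0.19. Of 5 analysed IGF-binding proteins, which hold these ligands outside cells, IGFBP6 alone was at least 1.5-fold higher in both depleted libraries (4% and 4.02% of all genes), at 111 and 129.8 FPKM, against 70.1. IGFBP4 was the most abundant, at 2269 and 2443 FPKM, against 1756. Among ERBB3, INSR, IGF1R and IRS2, genes known to be raised by FoxO factors when AKT is inhibited, 0 of 4 passed 1.5-fold in either direction in either depleted library. Over all analysed genes 4% were higher and 16.7% lower in FoxO3 depletion, and 4.02% and 12.3% in the co-depletion. With 4 genes, 0 calls thus says little. The median log2 ratio of the 4 was -0.20 in FoxO3 depletion and -0.25 in the co-depletion, beside -0.07 and -0.06 over all analysed genes. ERBB3, INSR and IRS2 lay below the control and IGF1R above it, at 0.41 and 0.33. By the smallest whole-read solution ERBB3 rested on 11 and 12 reads, against 18. Its implied length, 281.833 bases against a mean transcript length of 1522, is not whole, so its true reads may be a multiple.

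Eph receptors bind ephrins, which are tethered to neighbouring cells, and the list holds a receptor of each class, EPHA2 and EPHB4. EPHA2, which is itself induced by ERK signalling and is abundant in basal-like breast cancer, was at 891 FPKM in FoxO3 depletion and 869 in the co-depletion, against 494 in the control. The FPKM ratios were 1.81 (1.76 to 1.85) and 1.76 (1.72 to 1.80), and 160 of the 12649 analysed genes had a ratio as high in FoxO3 depletion. In absolute terms this difference in FPKM was the largest of the 10, and EPHA2 made up 49.4% of the summed receptor level in FoxO3 depletion and 48.7% in the co-depletion, against 32.5% in the control. After GC adjustment the log2 ratios of 0.85 and 0.81 became 0.81 and 0.70.

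EPHB4, a receptor of ephrin-B2, was at 81.9 FPKM in FoxO3 depletion and 84.5 in the co-depletion, against 56.4 in the control. Its ratios of 1.45 (1.36 to 1.55) and 1.498 (1.41 to 1.60) put it just short of the rule on the FPKM + 1 scale, with log2 ratios of 0.53 and 0.58. Reads of SLC12A9, which overlaps EPHB4 on the opposite strand and was at 31.2, 34.0 and 27.6 FPKM, cannot be told apart without strand. Of the other Eph receptors, EPHB2 was at 37.8 and 43.7 FPKM, against 38.6, and EPHA4 at 21.1 and 22.5, against 19.3. Among 5 analysed ephrins 1 was at least 1.5-fold higher (4% and 4.02% of all genes), EFNA5, at 33.3 FPKM in each depleted library, against 21.5. EFNB2, a ligand of EPHB4, was at 23.9 and 26.1 FPKM, against 25.7.

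PDGFRB had the highest ratio of the 10. This receptor of platelet-derived growth factor marks fibroblasts and pericytes and is known in mesenchymal-like tumour cells. It was at 15.0 FPKM in FoxO3 depletion and 14.4 in the co-depletion, against 6.24 in the control, with ratios of 2.41 (1.94 to 2.99) and 2.31 (1.87 to 2.87). The reads behind these values were 243, 266 and 136. Both depleted libraries lay well above the control, and 52 analysed genes had a ratio as high in FoxO3 depletion. The log2 ratios of 1.15 and 1.09 were 1.04 and 0.99 after GC adjustment. PDGFRA, the other receptor of this ligand family, was listed at 0 FPKM in both depleted libraries and at 0.15 in the control.

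Markers of fibroblasts were mostly absent beside PDGFRB. Of the 9 on the list 3 reached a mean of 1 FPKM, PDGFRB itself, COL1A1 and COL1A2, and the summed level of the list was 54.7 FPKM in FoxO3 depletion, 52.7 in the co-depletion and 30.5 in the control. FAP was listed at 0 in all 3 libraries, THY1 and DCN at 0 in both depleted libraries, at 0.11 and 0.06 in the control, and COL3A1 at 0.13, 0.04 and 0.16 FPKM. The 4 pericyte markers summed to 84.4, 81.4 and 74.9 FPKM, nearly all of it MCAM, at 77.4, 74.7 and 65.7. CSPG4 lay opposite to PDGFRB and to this sum, on 294, 305 and 533 reads. Its ratios to the control were 0.744 (0.643 to 0.859) and 0.677 (0.586 to 0.7804). RGS5 was at 2.02, 2.48 and 3.59 FPKM, on 5, 7 and 12 reads by the smallest whole-read solution. Its intervals on those reads hold 1. The implied length of RGS5, 230.333 bases against a mean transcript length of 740, is not whole, so its true reads may be a multiple. The intervals of ACTA2, slightly higher in both depleted libraries on 18, 15 and 17 reads, also hold 1. The ligand PDGFA was higher in the depleted libraries, at 15.7 and 17.9 FPKM, against 8.86, with ratios of 1.77 (1.43 to 2.21) and 2.02 (1.65 to 2.49). PDGFC, the most abundant of these ligands, was at 107 and 88.9 FPKM, against 102.

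KDR, the main VEGF receptor of endothelial cells, was the lowest of the 10 by FPKM. It was at 6.97 FPKM in FoxO3 depletion and 5.75 in the co-depletion, against 5.44 in the control, on 214, 201 and 225 reads. The ratio was 1.28 (1.06 to 1.55) for FoxO3 depletion and 1.06 (0.869 to 1.28) for the co-depletion, and the interval of the co-depletion holds 1. Of the endothelial markers analysed here KDR alone reached a mean of 1 FPKM, and CDH5 was listed at 0.06, 0 and 0 FPKM and VWF at 0.10, 0.09 and 0.26. VEGFA was abundant, at 186 and 209 FPKM, against 181. PGF, which binds FLT1, was higher, at 15.1 and 17.0 FPKM, against 9.29, while FLT1 itself stayed under 0.1 FPKM. The VEGF co-receptor NRP1 was lower, at 123 and 131 FPKM, against 196, with ratios of 0.628 (0.602 to 0.655) and 0.670 (0.644 to 0.697). On the FPKM + 1 scale NRP1 passed 1.5-fold in FoxO3 depletion, with a log2 ratio of -0.67, and not in the co-depletion, at -0.57.

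DDR1 binds collagen rather than a soluble growth factor. It was at 58.2 FPKM in FoxO3 depletion and 66.3 in the co-depletion, against 69.8 in the control, ratios of 0.833 (0.762 to 0.910) and 0.949 (0.875 to 1.03). The FoxO3-depleted library was thus the lowest of the 3, and the interval of the co-depletion holds 1. DDR2, its relative, stayed under 1 FPKM. Of 5 analysed collagens that DDR1 can bind, 3 were at least 1.5-fold higher and 0 lower in each depleted library, with a median log2 ratio of 0.82 in both, beside 4% and 4.02% of all genes higher and 16.7% and 12.3% lower. COL4A1, of basement membranes, was at 40.1 and 39.3 FPKM, against 16.1, COL5A1 at 234 and 259, against 132, and COL1A1 at 25.3 and 24.3, against 13.4.

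The co-depletion against FoxO3 depletion asks what differs when Geminin is depleted as well. None of the 10 receptors passed 1.5-fold in either direction, beside 1.35% of all analysed genes higher and 0.617% lower, and the median log2 ratio was -0.02. Counting intervals excluded 1 for 5 of the 10, against 20.8% of the genes with recovered reads. ERBB2, at 46.8 FPKM against 41.6, had a ratio of 1.13 (1.04 to 1.22), DDR1 1.14 (1.04 to 1.25) and MET 1.09 (1.004 to 1.19). EGFR had 0.930 (0.890 to 0.972) and EPHA2 0.975 (0.953 to 0.997). The widest departure from 1 was that of KDR, at 5.75 FPKM in the co-depletion against 6.97 in FoxO3 depletion, a ratio of 0.824 (0.676 to 1.004) whose interval holds 1. In the comparisons with the control, counting intervals excluded 1 for 10 of 10 receptors in FoxO3 depletion, against 56.7% of genes. In the co-depletion they did so for 8 of 10, against 54.7%. Counting intervals narrow as reads rise. All 10 receptors had a mean of at least 5 FPKM, while the background takes genes from a mean of 1 FPKM. The background intervals also used the smallest whole-read solution alone, while reads of receptors were scaled up where the transcript length allowed it. These shares are therefore not matched for depth, and whether receptors differ more often than genes of like depth was not tested.

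Of the 58 human receptor tyrosine kinases 30 reached a mean of 1 FPKM, the 10 above and 20 others. Among those 20, 1 was at least 1.5-fold higher and 1 lower in FoxO3 depletion, and 2 were higher and 1 lower in the co-depletion, with median log2 ratios of 0.23 and 0.19. Those counts stand beside 4% higher and 16.7% lower of all genes in FoxO3 depletion, and 4.02% and 12.3% in the co-depletion. RYK, at 30.8 and 26.5 FPKM, against 23.9, passed in FoxO3 depletion only after GC adjustment (0.83). MUSK, known from the neuromuscular junction, was at 7.25 FPKM in FoxO3 depletion and 7.79 in the co-depletion, against 3.00 in the control, with ratios of 2.42 (1.83 to 3.21) and 2.60 (1.99 to 3.41). CSF1R, the receptor of macrophage colony-stimulating factor, was at 1.48 and 1.62 FPKM, against 3.75, on 24, 30 and 82 reads. STYK1 was at 9.77 and 12.9 FPKM, against 7.32. FGFR1 was the most abundant of the 20, at 122 and 129.98 FPKM, against 97.3, and PTK7 followed at 69.1 and 70.2, against 72.2.

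Genes that carry the receptor signal gave calls near or under the share over all analysed genes, which was 4% higher and 16.7% lower in FoxO3 depletion and 4.02% and 12.3% in the co-depletion. Of 15 adaptors and proximal effectors 0 were higher and 1 lower in each depleted library, the exchange factor SOS2, at 13.7 and 16.3 FPKM, against 26.4, with 0 lower after GC adjustment. Of 13 analysed PI3K and AKT pathway genes 0 were higher and 2 lower in each, about the share over all genes. These were PIK3CA, the catalytic subunit p110-alpha, at 7.36 and 9.44 FPKM, against 19.9, and RICTOR, which defines the mTOR complex that phosphorylates AKT, at 8.87 and 10.6, against 25.03. After GC adjustment both kept their call, with log2 ratios of -0.83 and -0.67 in FoxO3 depletion, against -1.32 and -1.40 as measured. AKT1 and AKT2 were at 92.3 and 189 FPKM in FoxO3 depletion and 95.9 and 196 in the co-depletion, against 77.4 and 181 in the control. Of 13 RAS and ERK pathway genes 2 were lower in FoxO3 depletion and 1 in the co-depletion. RASA1, which switches RAS off, was at 22.2 and 23.1 FPKM, against 46.6, and NF1, with the same role, at 7.0003 and 7.88, against 11.4. Adjusted for GC, RASA1 had log2 ratios of -0.55 in FoxO3 depletion and -0.60 in the co-depletion, of which the second still passed, and NF1 had -0.20 and -0.10. NRAS, at 38.8 FPKM in each depleted library against 39.1 in the control, passed in FoxO3 depletion only through the adjustment (0.70).

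**Figure D4:**
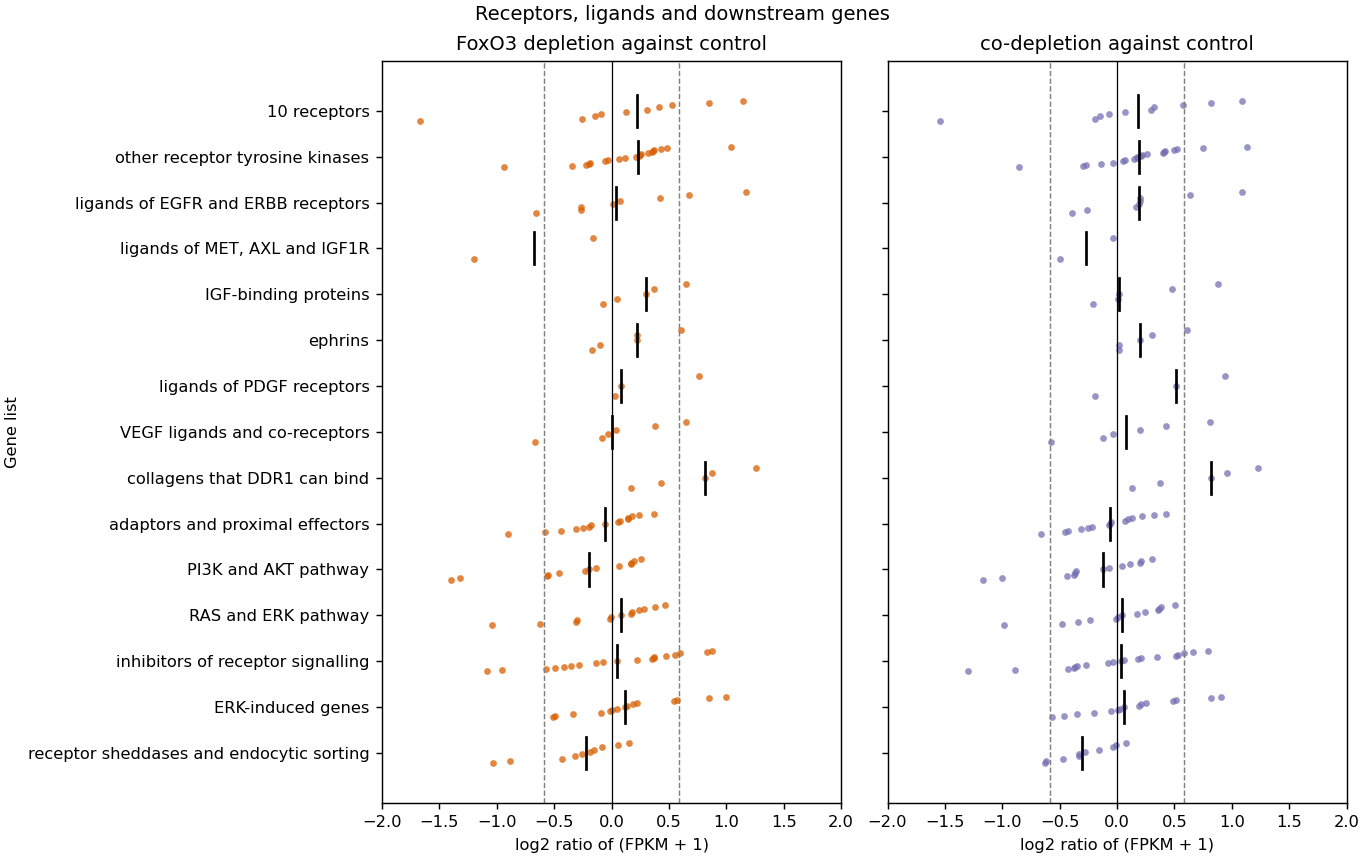
log2 ratio of (FPKM + 1) (horizontal axis) of every analysed member of the receptor, ligand and pathway lists (rows), for FoxO3 depletion and co-depletion against control; each point is a gene, short black lines are list medians and dashed lines mark 1.5-fold. The collagens have the highest median, 0.82 in both panels. The medians for FoxO3 depletion and co-depletion are -0.06 and -0.06 for adaptors and -0.20 and -0.12 for PI3K and AKT genes. For RAS and ERK genes they are 0.08 and 0.04.

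Of 19 analysed inhibitors of receptor signalling, 3 were higher and 2 lower in each depleted library, beside about 4% higher and 16.7% (FoxO3 depletion) or 12.3% (co-depletion) lower of all genes. LRIG1 and LRIG3, membrane proteins of the family that restrains ERBB receptors, were at 12.4 and 13.3 FPKM in FoxO3 depletion and 12.3 and 12.9 in the co-depletion, against 7.83 and 7.01 in the control. SOCS3, a feedback inhibitor of cytokine receptors, was at 75.01 and 64.4 FPKM, against 40.3. SOCS2 and SOCS5 were lower, at 11.8 and 3.64 FPKM in FoxO3 depletion and 9.11 and 4.30 in the co-depletion, against 23.8 and 8.84 in the control. ERRFI1, which binds and blocks the EGFR kinase, was the most abundant, at 273 and 302 FPKM, against 407, short of the rule with log2 ratios of -0.57 and -0.43, and past it in FoxO3 depletion after GC adjustment (-0.61). That adjustment left LRIG1 short of 1.5-fold in both depleted libraries, at 0.51 and 0.55, and SOCS3 short in the co-depletion, at 0.57. After it 3 inhibitors were higher and 3 lower in FoxO3 depletion, beside 5.85% and 9.37% of all genes. Those 3 higher include a gene that had not passed as measured. In the co-depletion 1 was higher and 2 lower, beside 4.62% and 6.14%.

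ERK-induced genes are a readout of the pathway's transcription. Of 15, EPHA2 and EGR1 were higher and 0 lower in each depleted library (4% and 4.02% higher, 16.7% and 12.3% lower over all genes). EPHA2 is already counted among the receptors above, so its call adds nothing new here. The median log2 ratios of the 15 were 0.12 in FoxO3 depletion and 0.06 in the co-depletion. EGR1 was at 12.1 and 11.4 FPKM, against 5.58. The feedback phosphatases DUSP6 and DUSP4, which are standard marks of ERK output, were at 221 and 183 FPKM in FoxO3 depletion and 212 and 186 in the co-depletion, against 220.2 and 185 in the control. FOSL1, a subunit of AP-1, was at 191 and 199 FPKM, against 274, and passed the rule in FoxO3 depletion only after GC adjustment (-0.59). Of 10 genes of receptor shedding and endocytic sorting 2 were lower in each depleted library, near the 16.7% and 12.3% over all genes. These were the sheddases ADAM10, at 104 and 125 FPKM, against 193, and ADAM9, at 76.3 and 101, against 157. After GC adjustment ADAM10 alone passed in FoxO3 depletion (-0.61), and neither did in the co-depletion.

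Genes with a pattern most like those of the 3 receptors past 1.5-fold were sought by the distance between their log2 ratios against the control, over 3 libraries and 9519 protein-coding genes with a mean of at least 5 FPKM. Nearest to MET were BRCA1 (distance 0.04), RAB21 (0.05) and HIPK3 (0.05), and BRCA1 was at 4.92 and 5.43 FPKM, against 17.4. TRAF4, DCLK2 and TUFT1 lay nearest to EPHA2, with distances of 0.01, 0.01 and 0.02, and TRAF4 was at 83.5 and 82.0 FPKM, against 46.3. For PDGFRB the nearest were MAP3K14, DNAJC6 and HBEGF, with distances of 0.02, 0.02 and 0.03. Likeness in these ratios, over 3 libraries, says nothing of shared control.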

How the data were processed

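The deposited files hold FPKM per Ensembl gene, made by the authors, 1 file per library. TopHat2 2.0.9 is named in the submitters' processing notes, and for the counter, genome build, annotation and strand use nothing is given in the sources used here. Titles, together with the design text of the series, gave the groups. Gene names, GC content and transcript lengths came from GENCODE 29, which matched 45342 of 48162 IDs. The 12649 genes with a name and a mean of at least 1 FPKM were analysed.

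Whole reads were recovered from the FPKM values. Among genes with a single GENCODE transcript, the commonest product of FPKM and length is that of 1 read, which gave each library's total. For each gene the smallest set of whole reads, to a tolerance of 0.0001 and up to 60000 reads, was then searched, and was found for 12644 analysed genes and all 10 receptors. For the receptors and listed genes that set was multiplied by a whole number where this brought the implied length to the mean GENCODE transcript length. The background shares of intervals excluding 1 used the smallest set alone, which can make those intervals wider. True reads can still be a multiple of the recovered reads, which would make intervals narrower and implied lengths longer. Ratios carry exact 95% intervals (Clopper-Pearson, on the reads of both libraries), and levels exact Poisson intervals. Calls use a size rule of 1.5-fold on log2 of (FPKM + 1), which understates differences of low genes; no p-value was computed, since each group has 1 library. For GC adjustment, genes were put into 50 bins by GC content and the interpolated bin median was subtracted. The procedures were tested on simulated data. The receptors and the 15 gene lists were chosen with earlier results of these data known. Named genes are the 10 receptors, FOXO3, GMNN, ligands of the receptors, up to 5 list members past 1.5-fold, up to 2 of the highest level per list, and the 3 nearest in pattern to each called receptor; a few others (family members, cell markers and some pathway genes below the rule) were named after their values were seen. The analysis used Python 3.11.15, numpy 2.4.6, pandas 2.3.3 and scipy 1.17.1.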

Additional observations from a re-analysis of the deposited data

How the results depend on the processing

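The calls of PDGFRB and EPHA2 as higher and MET as lower were kept in both comparisons with the control under the following settings. The pseudocount was 0.1 or 0.5, values were rescaled to TPM or by the median ratio, or GC adjustment was made with or without length. Raising the minimum mean to 5 FPKM, dropping it, or taking protein-coding genes as background only selects genes. Those settings leave a receptor's own ratio as it is, so they could not change a call. In FoxO3 depletion the log2 ratios ranged over all these settings from 1.03 to 1.25 for PDGFRB, from 0.81 to 0.93 for EPHA2 and from -1.71 to -1.47 for MET. Rescaling by the median ratio also took EPHB4 past 1.5-fold, at 0.60 in FoxO3 depletion and 0.63 in the co-depletion. With a size rule of 2-fold, 1 receptor was higher in FoxO3 depletion and 1 in the co-depletion (PDGFRB), and with 3-fold 0 were higher in either and 0 were lower in the co-depletion, the stricter rule being the cause. With 99% intervals, 3 receptors instead of 5 excluded 1 between the depleted libraries and 8 instead of 10 in FoxO3 depletion against the control, while the co-depletion against the control gave 8 as before. Under GC adjustment 9 of 30 receptor ratios left their counting interval, and the sign of EPHB4 between the depleted libraries, 0.05, became -0.01. No paired analysis was possible because each group holds 1 library. Depth limits PDGFRB and KDR most, with 136 to 266 reads per library.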
